A study of Mus musculus with 4 samples.

Results

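The 10 genes described here are feedback inhibitors and transcriptional targets of the ERK pathway: the phosphatase genes Dusp6 and Dusp4, the Sprouty genes Spry1, Spry2 and Spry4, the Spred genes Spred1 and Spred2, the ETS factor genes Etv4 and Etv5, and Egr1. A Tfcp2l1 peak was assigned to a gene when its summit lay inside the gene or within 50 kb of either end, by RefSeq positions in GRCm38. By that rule 101 of 57614 peaks of repeat 1 and 88 of 51610 peaks of repeat 2 belonged to these genes, out of 21887 protein-coding genes. Peaks came from chromatin immunoprecipitation sequencing (ChIP-seq), in which DNA bound by a protein is recovered with an antibody and its short reads, or tags, are counted along the genome. All 4 libraries, 1 ChIP and 1 input library in each of 2 repeats, were from wild-type mouse embryonic stem cells in medium with N2 and B27 supplements, 1000 units/mL LIF and a pair of inhibitors, CHIR99021 at 3 µM against GSK3 and PD0325901 at 1 µM against MEK, with no further treatment. The ChIP libraries used 10 µg of a custom antibody to mouse Tfcp2l1, and the input libraries had no antibody. MEK was therefore inhibited in every library, no library with active ERK signalling was compared, and RNA was not measured. The strain or line and the separateness of the cultures are not given in the labels, so the spread between the repeats may be technical.

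In mouse embryonic stem cells, FGF4 acting through its receptors activates RAS, RAF, MEK and ERK, and this cascade favours exit from the naive state. ERK signalling is limited by genes that it induces itself: DUSP phosphatases remove phosphate from ERK, and Sprouty and Spred proteins act on receptor and RAS to RAF steps. ETV4, ETV5 and EGR1 are transcription factors whose genes are switched on by ERK. Tfcp2l1 is a CP2 family transcription factor acting downstream of LIF and STAT3 and is a member of the naive pluripotency network. Factors of this family recognise a pair of short repeated sites, searched here on both strands as CCAG, any 6 bases and CCAG again.

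The RefSeq promoter table held windows of 300 bp, from 250 bp before to 50 bp after a gene start, for 6 of the 10 genes (7 windows, since Etv5 had a pair). A peak was called shared when 1 bp or more of it was also covered by a peak of the other repeat. Such a peak overlapped the window of Dusp6 and both windows of Etv5, and none of those of Spry1, Spry2, Spred1 and Spred2. Over all 32851 windows, 19.3% were overlapped by a shared peak. The 250 bases before the start are printed 5′ to 3′ for Dusp6, which had the only summit inside its window, for the upstream start of Etv5, and for Spred1, whose window had no peak. They are from RefSeq, GRCm38.p6: chr10:99262981-99263230 on the plus strand, chr16:22439571-22439820 on the minus strand and chr2:117120821-117121070 on the plus strand. Capitals mark the 8 paired letters of each match to the motif with 1 mismatch.
Dusp6: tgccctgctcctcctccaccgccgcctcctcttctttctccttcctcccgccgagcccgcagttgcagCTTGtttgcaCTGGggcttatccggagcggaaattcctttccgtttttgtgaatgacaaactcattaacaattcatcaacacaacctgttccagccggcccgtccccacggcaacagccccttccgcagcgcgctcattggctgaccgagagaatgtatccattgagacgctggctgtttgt
Etv5: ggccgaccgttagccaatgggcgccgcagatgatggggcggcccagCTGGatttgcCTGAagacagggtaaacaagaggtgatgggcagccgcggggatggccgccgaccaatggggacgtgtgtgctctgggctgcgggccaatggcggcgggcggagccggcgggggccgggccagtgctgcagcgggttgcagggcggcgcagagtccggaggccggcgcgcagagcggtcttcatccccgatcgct
Spred1: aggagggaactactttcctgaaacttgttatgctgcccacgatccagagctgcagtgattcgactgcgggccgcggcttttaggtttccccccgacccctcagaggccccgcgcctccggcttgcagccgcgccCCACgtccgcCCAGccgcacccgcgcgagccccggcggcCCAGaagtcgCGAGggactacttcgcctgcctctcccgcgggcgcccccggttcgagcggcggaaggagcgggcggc
No exact match was found in any of the 7 windows, against 3.44% of all windows and 7.28% of the 2213 windows that held a shared summit. With 1 mismatch, 3 of the 7 windows had a match, those of Dusp6, Etv5 and Spred1, against 40.4% of all windows and 59.3% of those with a shared summit. The match of Dusp6 ran from -182 to -169 relative to the start, away from the summits, which lay 23 and 21 bp before it in repeats 1 and 2. Spred1 had matches at -116 to -103 and -77 to -64 without a peak of either repeat over its window. A match is a string of letters and not a measured site, and the sequence under the other peaks was not analysed here.

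Each of the 10 genes had a peak of repeat 1 and a peak of repeat 2 in the gene or within 50 kb, as did 85.5% and 82.9% of all protein-coding genes. All 10 also had at least 1 shared peak there, where 80.6% of all protein-coding genes had one. In all, 81 of the 101 peaks of repeat 1 and 81 of the 88 peaks of repeat 2 were shared, which was 80.2% (exact binomial 95% interval 71.1% to 87.5%) and 92.0% (84.3% to 96.7%). Over the whole lists the shares were 76.1% and 84.8%. The matches were not all one-to-one, and counts of shared peaks below are peaks of repeat 1. Pairs of values are repeat 1 and then repeat 2. The strongest peak of a gene is the shared one with the best mean of its fold enrichment ranks in the repeats, so it need not be the highest in each. Fold enrichment is the authors' own ratio for each peak, set by the ChIP signal at the summit and by the input nearby, and its median over the shared peaks was 15.5 and 12.2. For all shared peaks it was 15.5 and 11.5, so these peaks as a set had the level of an ordinary shared peak. The top decile of each list by enrichment began at 43.4 and 32.2 and held 12 of the 81 in each repeat, or 14.8% (7.9% to 24.4%), against 13.1% and 12.0% of all shared peaks. At least 20-fold enrichment in both repeats was found for 22 of the 81, and at least 50-fold for 4, 1 each at Dusp6, Spred2, Etv4 and Etv5. Of all protein-coding genes, 53.3% had a shared peak of at least 20-fold in their window and 17.7% one of at least 50-fold, against 8 and 4 of the 10 genes.

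**Figure D1:**
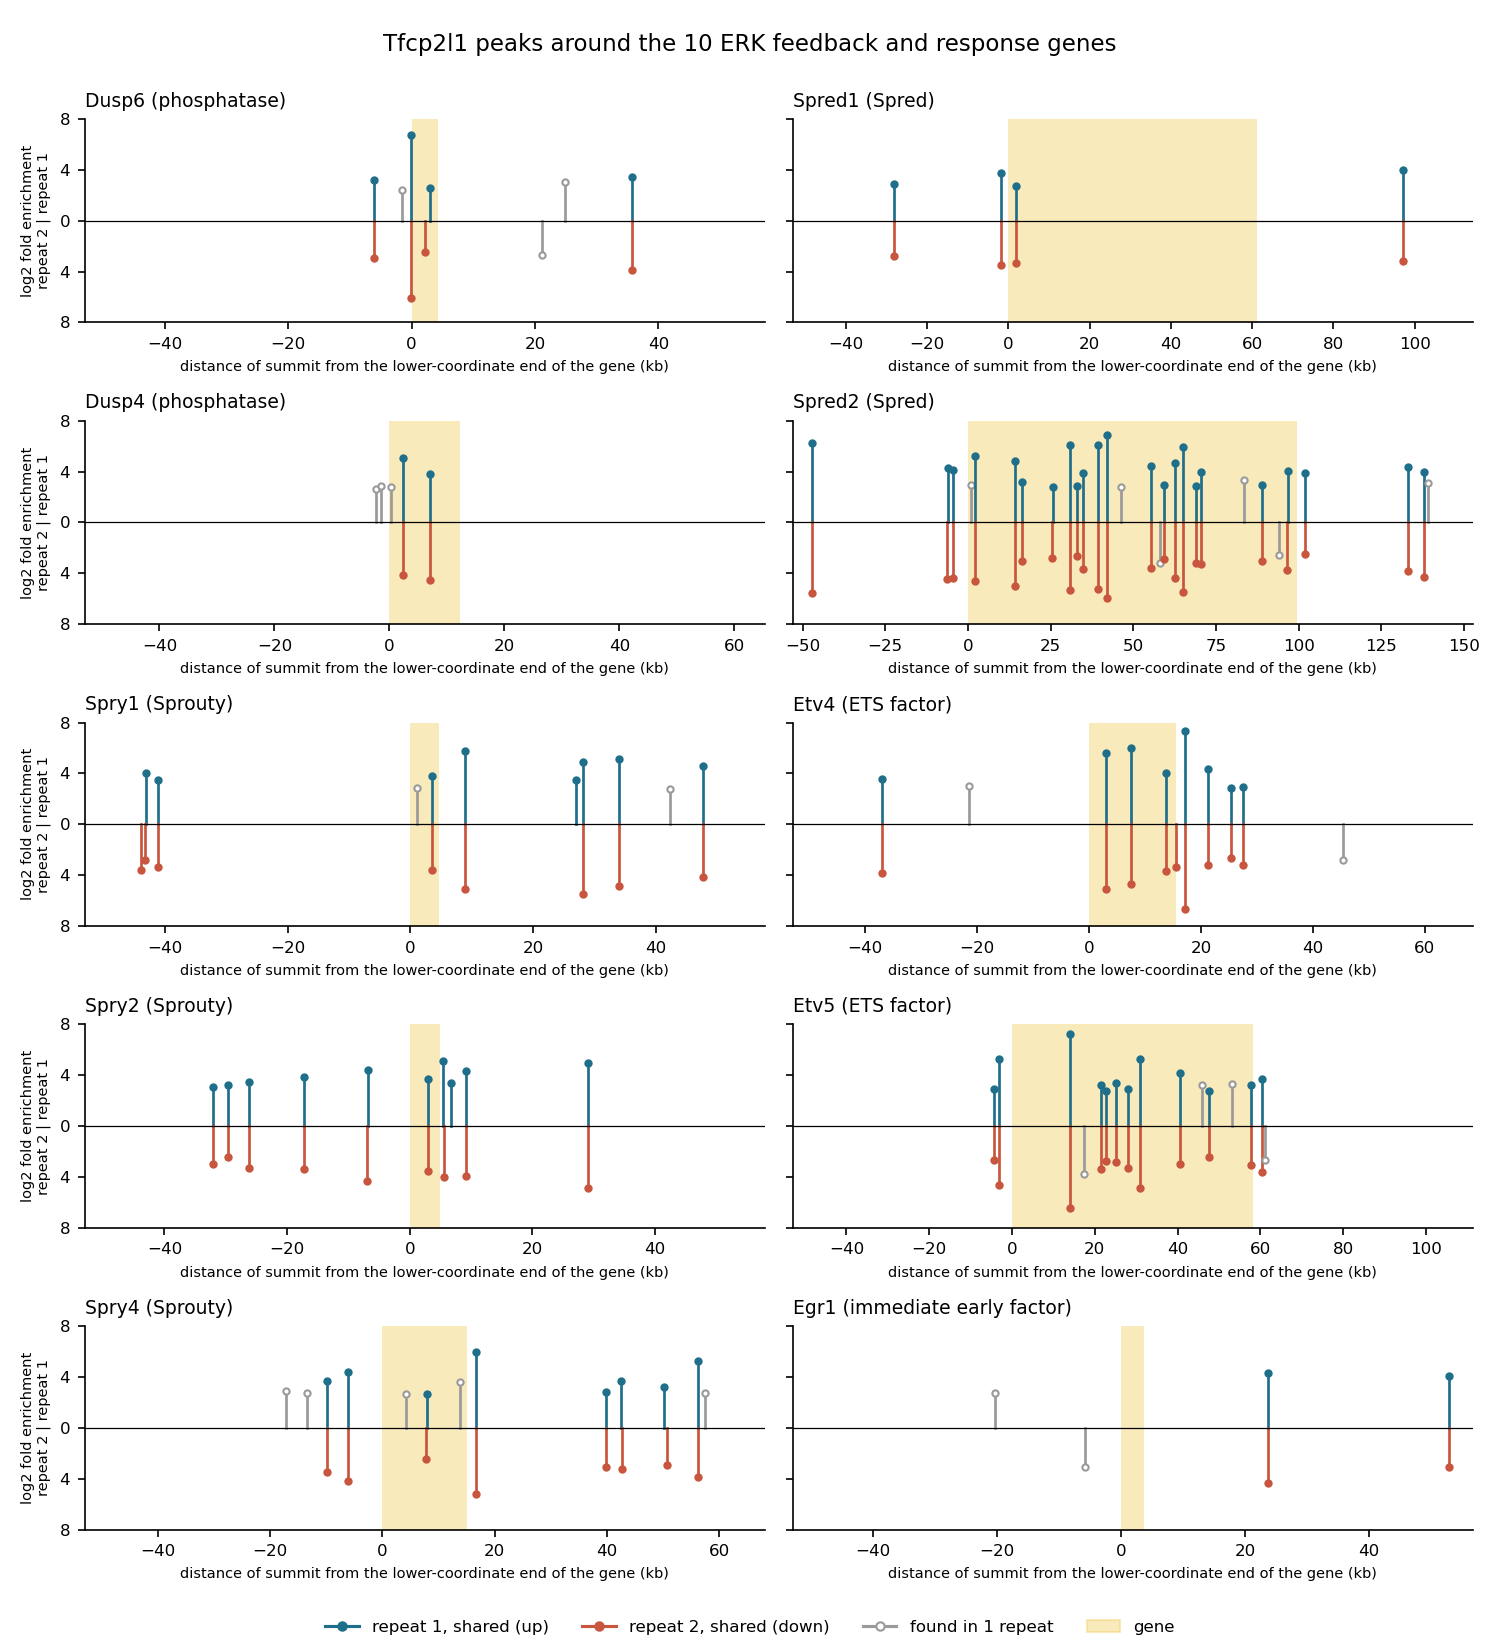
Summits around each of the 10 genes: the x axis is distance in kb from the lower-coordinate end of the gene (shaded), the y axis is log2 fold enrichment, upward for repeat 1 and downward for repeat 2. Filled points are shared peaks and open grey points peaks found in 1 repeat. Spred2 has 23 shared peaks, 17 of them inside the gene, Spred1 has 4 and Egr1 has none nearer than 19.9 kb.

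The phosphatase genes differed in where the factor lay. DUSP6, a cytoplasmic phosphatase specific to ERK, had its strongest peak at the start of its gene. Dusp6 is on chromosome 10 at 99263231 to 99267489, and this peak spanned 99262819 to 99263905 in repeat 1. It held 347 tags (exact Poisson 95% interval 311 to 386) and 322 tags (288 to 359), with 107-fold and 66.3-fold enrichment, rank 598 of 57614 and rank 862 of 51610. The other 3 shared peaks of Dusp6 had between 5.49-fold and 14.5-fold enrichment in either repeat, so this 1 peak took 78.0% and 71.4% of the tags in the gene's shared peaks. DUSP4, a nuclear phosphatase of the same family, had no such peak at a gene end. Both shared peaks of Dusp4 (chromosome 8, 34807610 to 34819894) lay inside the gene. That at 34809553 to 34810638 had 34.3-fold and 17.5-fold enrichment (109 and 98 tags), and that at 34814133 to 34815051 had 14.3-fold and 22.8-fold (47 and 92 tags). Their order by enrichment was opposite in the repeats, so neither was reliably the stronger. Another 3 peaks near the lower-coordinate end of Dusp4, with 20 to 30 tags and 6.28-fold to 7.25-fold enrichment, were found in repeat 1 and not in repeat 2.

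The Sprouty genes had 26 shared peaks, 3 of them inside a gene. Sprouty proteins are inhibitors of receptor tyrosine kinase signalling upstream of ERK, first described in Drosophila. Spry1 (chromosome 3, 37639947 to 37644599) had 8. The strongest lay 8.82 kb beyond its start and 4.16 kb past its other end, at 37648174 to 37649269, with 165 tags (141 to 192) and 171 tags (146 to 199) and 54.6-fold and 34.7-fold enrichment. Farther out on that side, a peak at 37673193 to 37675641 held 270 and 250 tags (35.2-fold and 28.3-fold). Next to it, repeat 1 had separate peaks of 11.4-fold and 29.2-fold where repeat 2 had a single peak of 243 tags and 43.7-fold enrichment. The nearest protein-coding gene was Spry1 for 5 of its 8 shared peaks, Spata5 for 2 and Gm5148 for 1. A peak 1.10 kb inside the start was found in repeat 1 alone, with 27 tags.

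Spry2 (chromosome 14, 105891947 to 105896819) was the nearest protein-coding gene of all 10 of its shared peaks. They reached from 32.1 kb past its end to 24.1 kb before its start, the latter at 105919867 to 105921603 with 169 tags (144 to 196) and 171 tags (146 to 199) and 31.4-fold and 29.0-fold enrichment. A peak 0.614 kb before the start, at 105897072 to 105898370, had the highest enrichment in repeat 1 (35.8-fold, 124 tags) but 15.7-fold in repeat 2 (104 tags). That repeat 2 peak also covered a repeat 1 peak 1.91 kb before the start (10.6-fold, 39 tags), so the tags are not of equal stretches. The 10 shared peaks thus matched 9 peaks of repeat 2. No peak of Spry2 was found in a single repeat. Spry4 (chromosome 18, 38586247 to 38601347) had 8 shared peaks, with the strongest at 38601315 to 38603431, its summit 1.56 kb beyond the higher-coordinate end. It held 320 tags (286 to 357) and 224 tags (196 to 255), with 62.0-fold and 37.7-fold enrichment. That summit, like 4 others of the 8, lay within Arhgap26, a gene whose nearer end is 0.270 kb from Spry4, so that 3 of the 8 had Spry4 as the nearest gene. Repeat 1 had 5 further peaks there that repeat 2 did not have, with 17 to 42 tags.

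The Spred genes differed in the number and strength of their peaks. Spred proteins are relatives of Sprouty that recruit neurofibromin to RAS at the membrane. Spred2 (chromosome 11, 19924442 to 20024026) had 23 shared peaks, 17 of them inside its 99.6 kb, which gave it rank 55 of the 21887 protein-coding genes by that number. Spred1 (chromosome 2, 117121071 to 117182279) had 4, and 49.8% of genes had fewer. Per 100 kb of window, so that gene length is taken into account, Spred2 had 11.5 shared peaks, which was rank 505. Spred1 had 2.48, rank 11201, against a median of 2.58 over all genes. The strongest peak of Spred2, 42.1 kb beyond its start at 19965878 to 19967158, held 377 tags (340 to 417) and 300 tags and had 121-fold and 61.1-fold enrichment. It did not stand alone. Shared peaks 30.9, 39.4 and 64.9 kb beyond the start had 67.7-fold, 67.2-fold and 61.8-fold enrichment in repeat 1 and 39.7-fold, 38.1-fold and 43.6-fold in repeat 2. One 47.0 kb before the start had 78.3-fold and 46.1-fold. The strongest peak therefore held 14.3% and 11.9% of the tags in shared peaks of Spred2, the lowest share of any of the 10 genes in both repeats. No shared peak of Spred1 reached 20-fold in either repeat. Its summits lay 28.0 and 1.76 kb before the start, 1.91 kb inside it, and 35.9 kb past the other end, and their enrichment ran from 6.76 to 15.5 in repeat 1 and from 6.79 to 11.4 in the other repeat. The remaining 59.3 kb of the gene had no shared summit.

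**Figure D2:**
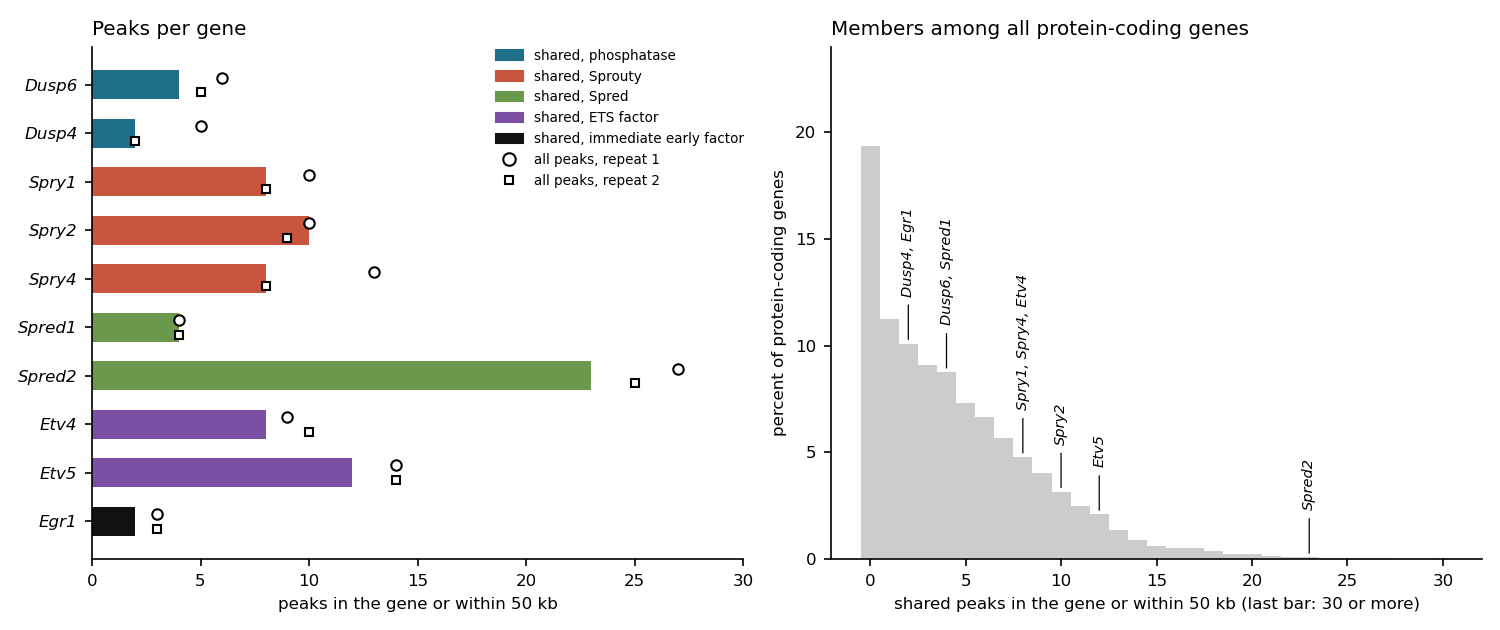
Left, peaks in the gene or within 50 kb for each gene (bars, shared peaks coloured by role; circles, all peaks of repeat 1; squares, all peaks of repeat 2). Right, percent of the 21887 protein-coding genes by number of shared peaks in the same window, with the 10 genes marked; 30.6% of genes have fewer than Dusp4 and Egr1, and 99.7% fewer than Spred2.

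The single peaks of highest enrichment in both repeats were at the ETS factor genes, 1 at Etv4 and 1 at Etv5. Over all 20 shared peaks of these genes, however, the median enrichment was 12.1 and 9.93, the lowest of the 5 roles in both repeats, the medians of the other roles being 12.7 to 18.8 and 12.5 to 16. ETV4 and ETV5 are related activators of the PEA3 group. Etv4 (chromosome 11, 101769747 to 101785310) had 8 shared peaks, and its strongest had rank 49 of 57614 and rank 88 of 51610. In repeat 1 this peak covered 3844 bp, from 101784630 to 101788473, across the higher-coordinate end of the gene, with 729 tags (677 to 784) and 158-fold enrichment. In repeat 2 the same stretch was split into a peak of 545 tags (500 to 593) and 103-fold and a peak of 50 tags and 10.2-fold whose summit lay 19 bp beyond the gene end. The main summit was 1.61 and 1.63 kb beyond that end, within the lncRNA gene Gm39392, whose nearer end is 11 bp from Etv4. Inside Etv4, peaks at 101776662 to 101777695 and at 101772349 to 101773369 had 65.0-fold and 49.8-fold enrichment in repeat 1. In repeat 2 they had 26.1-fold and 33.4-fold, so that their order was opposite.

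Etv5 (chromosome 16, 22381313 to 22439570) had 12 shared peaks, all in the gene or within 10 kb, and each had Etv5 as the nearest gene. Its strongest lay inside the gene, 44.2 kb beyond the upstream start, at 22394642 to 22395991. It held 590 tags (543 to 640) and 392 tags (354 to 433), with 156-fold and 84.8-fold enrichment, rank 61 and rank 296. The peak that covered both promoter windows, at 22438242 to 22440138, was weak by comparison, with 86 and 72 tags and 9.53-fold and 8.24-fold enrichment, below the medians of all peaks (12.1 and 10.2). The strongest peak thus held a large part of the shared-peak tags at both genes, 57.0% and 49.5% at Etv4 and 48.0% and 38.4% at Etv5. This was not particular to them. Larger shares were found at Dusp6 (78.0% and 71.4%), and at Dusp4 (69.9% and 51.6%) and Egr1 (57.7% and 71.4%), with 2 shared peaks each. Etv4 and Etv5 differed in the place of their strongest peak, beyond a gene end at Etv4 and deep within the gene at Etv5.

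Egr1, an immediate early gene encoding a zinc finger factor, was the member with the fewest nearby sites (chromosome 18, 34861207 to 34864956). It had no shared peak inside or within 10 kb, where 64.5% of protein-coding genes had one and the other 9 members each had at least 1. Inside the gene the counts were again 9 of 10 members, against 44.8% of genes. At Dusp6 and Spry4 this rested on 1 weak peak each, of 5.96-fold and 5.49-fold and of 6.35-fold and 5.49-fold. The summits of those matched peaks were 687 and 212 bp apart. The window of Egr1 held 2 shared peaks, 19.9 and 49.1 kb past the higher-coordinate end. The former had 60 and 70 tags with 20.3-fold and 20-fold enrichment and was 17.9 kb from Etf1. The latter lay inside Etf1, with 44 and 28 tags and 17.4-fold and 8.53-fold. Neither had Egr1 as its nearest protein-coding gene, and Egr1 was alone among the 10 in this, while 58.8% of all protein-coding genes had such a peak within 50 kb. A peak of 36 tags and 8.24-fold enrichment 5.85 kb from Egr1 was found in repeat 2 alone. A site with fewer tags than the threshold of the peak caller would not be listed, so these data do not show that binding at Egr1 is absent.

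The 81 shared peaks were then divided by place. Inside the genes lay 36, with a median enrichment of 14.6 and 12.0. Outside but within 2 kb of an end were 6, at 5 genes, with a median of 48.9 and 26.7. These included the strongest peaks of Dusp6, Spry4 and Etv4, and also that of Spred1, of 13.5-fold and 11.4-fold. The Spry2 peaks among the 6, at 0.614 and 1.91 kb, had the same match of 15.7-fold in repeat 2, which enters the median for each. The 14 peaks at 2 to 10 kb had a median of 18.1 and 13.7, and the 25 at 10 to 50 kb one of 14.7 and 10.6. The member was the nearest protein-coding gene for 36 of 36, 5 of 6, 14 of 14 and 12 of 25 peaks in these 4 places. For the 36 inside, this followed from their place, as no shorter protein-coding gene also held the summit. With 6 peaks in the closest group, no test was made of these medians, and those of all shared peaks at the same distances are not given here.

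The 10 genes were put in order by their strongest shared peak in each repeat. Etv4 and Etv5 came at the top and Spred1 at the bottom in each. Spred2 (121-fold and 61.1-fold) and Dusp6 (107-fold and 66.3-fold) exchanged places, and so did Dusp4 (34.3-fold and 17.5-fold) against Spry2 (31.4-fold and 29.0-fold) and Egr1 (20.3-fold and 20-fold). The latter exchange rests on following 1 peak per gene. By the highest shared peak of each repeat, the order was Spry2 (35.8-fold and 29.0-fold), Dusp4 (34.3-fold and 22.8-fold) and Egr1 (20.3-fold and 20-fold) in both, while Spry4 (62.0-fold and 37.7-fold) and Spry1 (54.6-fold and 43.7-fold) exchanged places. Among all genes with a shared peak, ranked by the mean rank of their strongest peak, Etv4 stood at 106 and Etv5 at 308 of 17646, and Spred1 at 15413. Enrichment was higher in repeat 1 at 63 of the 81 shared peaks (77.8%), as at 77.4% of all shared peaks, with a median ratio of 1.19 here and 1.31 over all. Summits of the matched peaks were a median of 26 bp apart, and 28 bp over all. Across the 81 peaks, which share libraries and are not replicates, Pearson's r of log2 enrichment was 0.887, and over all 43851 it was 0.850. Larger disagreement occurred at single sites, such as the peak in Etv4 of 65.0-fold and 26.1-fold and one 41.2 kb beyond Spry4 of 38.1-fold and 14.9-fold (115 and 61 tags).

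**Figure D3:**
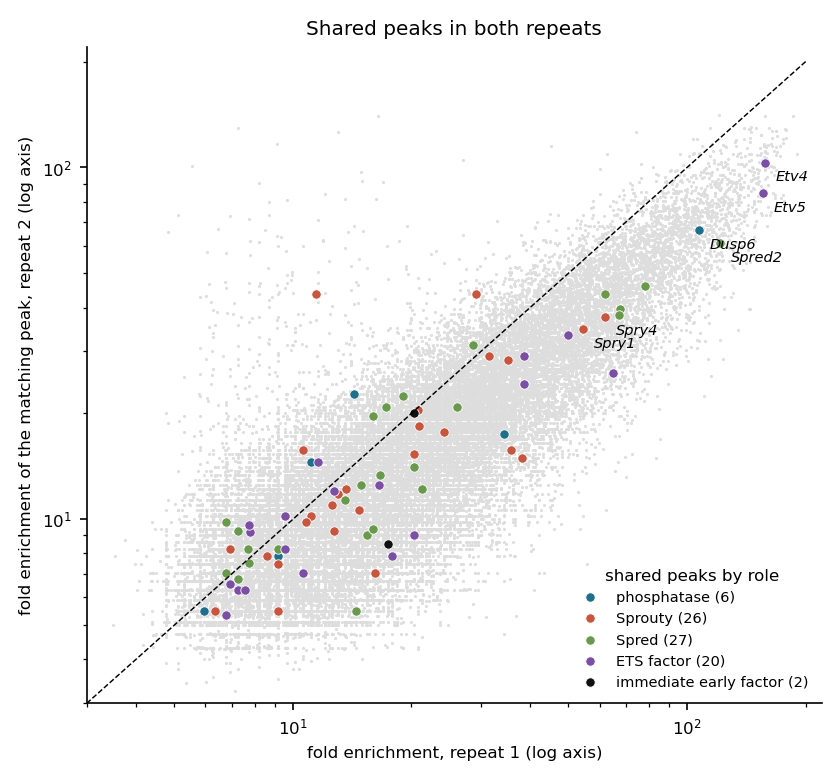
Fold enrichment of each shared peak in repeat 1 (x axis, log scale) and of its match in repeat 2 (y axis, log scale): coloured points are the 81 peaks of the 10 genes by role, grey points all 43851 shared peaks, and the dashed line marks equal values. The strongest peaks of Etv4, Etv5, Spred2 and Dusp6 lie at the upper right and below the line.

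The peaks found in a single repeat were mostly weak, as over the whole lists. Their median enrichment was 7.2 and 7.06, against 7.73 and 6.56 for all such peaks. In repeat 1 these were 20, with 17 to 46 tags and 5.31-fold to 12.0-fold enrichment, against 18 to 729 tags for the shared ones. In repeat 2 they were 7, with 24 to 55 tags and 5.89-fold to 13.3-fold. The highest of these, inside Etv5, was above the median of 12.2 of the shared peaks there. Spry4 had 5 of those of repeat 1, Spred2 4 and Dusp4 3.

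Shared peaks were also found at most other genes of the pathway. Of 50 other genes of the cascade, its feedback and its response, 48 had a shared peak in the gene or within 50 kb and 44 within 10 kb, against 80.6% and 64.5% of all protein-coding genes. Their median number of shared peaks was 7, between the 8 of the 10 members and the 4 of all genes. Among 25 adaptor and cascade genes, 24 had one. By the mean of ranks in the repeats, the strongest were at Nf1, whose product inactivates RAS (116-fold and 97.2-fold, 15.0 kb outside the gene), Hras (109-fold and 115-fold) and the scaffold gene Ksr2 (93.4-fold and 97.7-fold, 10.1 kb outside). That of Hras was 25.8 kb away and nearer to Rassf7. The kinase gene Rps6ka3, on chromosome X, had none. The MEK gene Map2k1, named after its values were seen, had 13 shared peaks.

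Of 9 other feedback genes, 8 had a shared peak. Dusp1, a nuclear phosphatase of MAP kinases, had 127-fold and 99.6-fold enrichment 2.65 kb outside the gene, above the strongest sites of Dusp6 and Dusp4 in both repeats. Spred3 had a site of 81.2-fold and 73.0-fold inside the gene, with Ggn given as its nearest gene. Errfi1, an inhibitor of the EGF receptor, had one of 101-fold and 37.7-fold 1.32 kb outside. Spry3, on chromosome X, had none, unlike the 3 Sprouty members described above. The other listed pathway genes on chromosome X, Araf, Dusp9 and Elk1, had 3, 4 and 5 shared peaks in their windows. All 16 other response genes had a shared peak in the window and 13 within 10 kb, with the strongest at Fos (95.8-fold and 41.5-fold, 22.0 kb outside), Fosl1 (63.7-fold and 43.6-fold, 34.5 kb outside and nearer to Cfl1) and the immediate early gene Ier2 (49.0-fold and 51.4-fold, 4.15 kb outside). The median strongest peak was 58.3-fold and 36.2-fold for the 10 members and 54.2-fold and 37.3-fold for the 48 other pathway genes with a shared peak. Over all protein-coding genes with a shared peak it was 41.0-fold and 28.6-fold. No test was made of these differences, since the genes were chosen with earlier results known. Each strongest peak is a maximum over its window. The median number of shared peaks per window was 8 for the members, 7 for the other genes and 4 for all protein-coding genes. The part of that number in the differences was not tested.

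**Figure D4:**
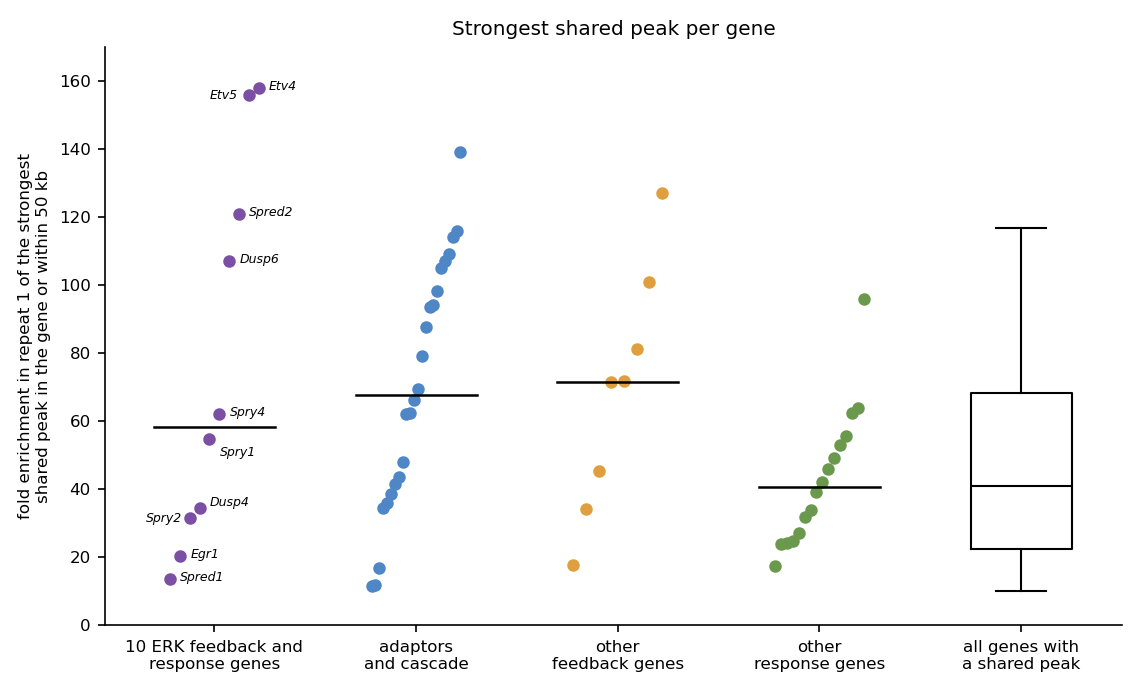
Fold enrichment in repeat 1 of the strongest shared peak in the gene or within 50 kb, 1 point per gene, for the 10 members and 3 groups of other pathway genes (lines, medians), and for all 17646 protein-coding genes with a shared peak (box, quartiles; whiskers, 5th and 95th percentiles). The members run from 13.5-fold at Spred1 to 158-fold at Etv4.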

How the data were processed

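The 2 deposited peak lists, 1 per repeat and not pooled, were used. Each ChIP library was compared with the input of its repeat in MACS 1.4.1, per the file headers (p-value threshold 1e-05, tag size 35 bp, fragment length 200 bp, at most 2 duplicate tags per position). CASAVA 1.8.2 is named in the submitters' processing notes. For the aligner, the sources used here give no name. Filtered depth, per the file headers, was 19353473 and 22555373 ChIP tags and 18446758 and 23825930 input tags. The deposited tag counts are whole and were not scaled. In the deposited score a p-value is given as -log10 multiplied by 10, and the deposited fold enrichment is a ratio to local background. The deposited FDR, in percent, was at most 0.12. Peak lengths and summit offsets, which have other units (bp), were also deposited.

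The processing notes name mm9, but chromosome Y peaks reach 90.8 Mb, beyond its length in mm9, and summits gathered at GRCm38 gene ends on all 19 autosomes in both lists, so RefSeq GRCm38.p6 was used, without mitochondrial genes. It gives gene starts and ends without exons. Strand came from the promoter table for 6 members, and for the others ends are called lower or higher in coordinate. The match of a peak was the overlapping peak with the nearest summit. Intervals are exact (Poisson or Clopper-Pearson, 95%) and cover counting error only. No test was made, since there is 1 condition. Matching was tested on simulated peaks. Members and lists were chosen with earlier results of these data known. All 10 members were named, with the 3 strongest genes of each pathway group and those without a shared peak. Alternatives changed the window, the overlap, the peak threshold, the repeat and the motif. Python 3.11.15, pandas 2.3.3 and SciPy 1.17.1 were used.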

Additional observations from a re-analysis of the deposited data

How the results depend on the processing

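The count of 81 shared peaks followed the window and the threshold: 36 inside the genes, 123 within 100 kb, 48 with at least 10-fold and 22 with at least 20-fold enrichment in both repeats. Other overlap rules, a window of 10 kb, a score of at least 100 and the nearest gene alone gave 56 to 78. Single repeats gave 88 and 101. The median enrichment of 15.5 rose to 22.7, 20.3 and 52.2 with at least 10-fold, a score of at least 100 and at least 20-fold, by construction. Over all peaks of a single repeat, unshared ones included, it was 12.6 in repeat 1 and 11.6 in repeat 2, whose shared peaks alone had 12.2. The shared percentage of 80.2 became 89.4 with the score limit (59 of 66) and 71.0 with the 20-fold limit (22 of 31). With a limit, the match in repeat 2 also had to pass it, so these percentages are not shares of peaks with a match. Member peaks of repeat 1 without a match reached 12.0-fold at most, so all 31 of at least 20-fold had one. Of the 50 pathway genes, 31 had a shared summit inside the gene and 38 to 48 had one under the other alternatives. Between 8 and 10 members kept a shared peak under each alternative. The motif count went from 0 to 3 windows with 1 mismatch and stayed 0 with a spacer of 5. Of 110 counts for single members under an alternative, 42 moved by more than 1.5 times, among them Spry4 from 8 to 13 and Dusp4 from 2 to 5 when repeat 2 was left out. No paired analysis was possible because no test over samples was made and inputs are seen only inside the deposited peak calls. Sites under the caller's threshold are not listed, so depth limits what can be said of Egr1 and Spred1.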

Other observations

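The windows also held sites at genes outside the pathway. Arhgap26, beside Spry4, contained 5 of the 8 shared peaks of that window, and the lncRNA gene Gm36412 contained 2 of the 8 of Spry1. Tnks, a tankyrase gene whose nearer end is 9.29 kb from Dusp4, had none of the shared peaks of the Dusp4 window. Both of those lay inside Dusp4, and the part of Tnks beyond the window was not examined here. Dhx8, 2.39 kb from Etv4, had no shared peak of the Etv4 window inside its bounds, although a shared summit lay 0.209 kb from its end (11.6-fold and 14.5-fold). The microRNA gene Mir674, 2.85 kb from Spred1, had none. Among promoter windows of all genes, the exact motif was found in 5.2% of those overlapped by a shared peak and 3.02% of those without one. With a spacer of 5 the shares were 4.02% and 3.43%. The 250 bases upstream were also richer in G and C where a shared peak overlapped (median 60%, against 52.4% of all windows), and the part of base composition in the motif shares was not tested.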
